A study of Mus musculus with 288 samples.

Results

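The genes Dnmt3a, Dnmt3b and Dnmt3l were followed together in single mouse embryonic stem cells, to describe in which cells they were read alone, in pairs or all together, how their levels varied from cell to cell and which other genes varied with them. They were taken by name as 3 of the 54232 gene rows of the deposited table, in the 233 of 288 wells with over 200000 reads, over 2000 genes and a mitochondrial fraction under 0.15. The study gives these limits but kept fewer cells than they leave in the deposited table. All wells carry the label E14, an embryonic stem cell line of strain 129/Ola for which the study cites an HPRT-deficient derivation, but the plates differed in Hprt and Y-linked reads, as given below. Those labelled D0 (0 h, 90 passing cells of 96 wells) were grown in N2B27 medium with the inhibitors CHIR99021 and PD0325901 and leukemia inhibitory factor (LIF), and those labelled D1 (24 h, 50 of 96) and D2 (48 h, 93 of 96) had been moved to serum with LIF. Single cells had been sorted into plates and treated with the GpC methylase M.CviPI, and RNA and DNA were then processed by scNMT-seq, of which only the polyadenylated RNA was used here. No genotype or treatment other than the change of medium is named in the labels.

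DNMT3A and DNMT3B are the enzymes that place methyl groups on unmethylated CpG sites, and DNMT3L, which has no catalytic activity of its own, binds both and stimulates them. Embryonic stem cells held in the presence of MEK and GSK3 inhibitors (2i) have low DNA methylation, and methylation is gained when the inhibitors are withdrawn, as in the peri-implantation epiblast. Mouse Dnmt3a has a long transcript and a shorter one from an internal start, which predominates in embryonic stem cells, but counts per gene do not separate them.

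The starts of the 3 genes differed in sequence. In RefSeq windows of GRCm38.p6 running from 250 to 21 bases before an annotated start, the long Dnmt3a transcripts began in one of the densest CpG regions of the genome, the Dnmt3b and the internal Dnmt3a starts were CpG-rich, and Dnmt3l was not. The windows are shown because the genes are compared as a group below, and CpG, the dinucleotide that their products methylate, stands in capitals. All lie on the plus strand, at chr12:3806730-3806959 (Dnmt3a, long) and chr12:3891494-3891723 (Dnmt3a, internal), chr2:153649199-153649428 (Dnmt3b) and chr10:78049592-78049821 (Dnmt3l).
Dnmt3a long: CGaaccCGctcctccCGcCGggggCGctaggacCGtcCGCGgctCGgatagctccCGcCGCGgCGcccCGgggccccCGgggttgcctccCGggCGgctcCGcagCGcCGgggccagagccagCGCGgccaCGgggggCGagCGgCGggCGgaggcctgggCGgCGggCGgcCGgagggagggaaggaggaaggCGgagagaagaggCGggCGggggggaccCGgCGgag
Dnmt3a internal: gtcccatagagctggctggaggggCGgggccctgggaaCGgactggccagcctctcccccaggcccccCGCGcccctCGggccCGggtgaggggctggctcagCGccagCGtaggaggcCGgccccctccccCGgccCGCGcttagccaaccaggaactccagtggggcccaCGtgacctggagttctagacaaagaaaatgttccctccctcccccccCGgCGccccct
Dnmt3b: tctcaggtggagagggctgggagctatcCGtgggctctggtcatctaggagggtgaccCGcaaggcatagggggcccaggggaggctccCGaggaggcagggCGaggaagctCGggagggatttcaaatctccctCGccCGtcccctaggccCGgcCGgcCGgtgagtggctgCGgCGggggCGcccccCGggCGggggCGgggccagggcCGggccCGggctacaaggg
Dnmt3l: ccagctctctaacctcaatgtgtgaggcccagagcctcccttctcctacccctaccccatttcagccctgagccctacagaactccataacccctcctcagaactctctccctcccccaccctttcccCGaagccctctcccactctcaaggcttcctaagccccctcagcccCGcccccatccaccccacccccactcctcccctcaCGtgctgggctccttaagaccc

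The long Dnmt3a window held 36 CpG (83% G and C), more than 98.4% of the 32851 promoter windows of this length. Another annotated Dnmt3a start, whose window at chr12:3806910-3807139 overlaps it and is not shown, had 38 CpG. The internal Dnmt3a window held 15 CpG and the Dnmt3b window 18, more than 76.3% and 82.2% of all windows. The Dnmt3l window held 3 CpG, below the median of 5, and 2 other annotated Dnmt3l starts had 5 and 2. GGGCGG, searched on both strands and present in 29.8% of windows, occurred 5 times in the long Dnmt3a window, 1 time in the internal one, 2 times in that of Dnmt3b and 1 time in that of Dnmt3l. CACGTG, the palindromic E-box, present in 5.35% of windows, occurred 1 time in the internal Dnmt3a window and 1 time in that of Dnmt3l. CCAAT (32.2% of windows) and TATAAA (11.8%), both searched on both strands, were in none of the windows of the 3 genes. Which start was used in these cells was not measured.

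Nothing in the labels gives a label more than 1 culture or 1 plate. The time of release, the plate and the library, and any difference between the cell lines on the plates, therefore cannot be told apart, and because cells of 1 culture do not stand in for repeats of it, the labels were compared without a test. Median reads per passing cell were between 1610758.5 (D0) and 7956161.5 (D1). D2 cells had a median of 4744 genes with a read against 9002 in D0 and 10676 in D1. Shares and correlations below were therefore computed after a random draw of 200000 reads from each cell (equal depth), unless full depth is named. At equal depth a median of 7804 genes was detected in D0, 8036 in D1 and 3943 in D2. The D1 plate stood apart in Hprt and in 4 genes of the Y chromosome (Uty, Kdm5d, Ddx3y and Eif2s3y). The sum of these 5 genes was over 100 CPM (counts scaled to a fixed total per cell) in 47 of 50 cells labelled D1, while it had a median of 0 in D0 and D2. At full depth Hprt was read in 96% of D1 cells against 10% in D0 and 7.53% in D2. Whether the D1 plate holds the same line as the others is not settled by the labels, and every difference between D1 and the other labels given here, in level, joint reading or correlation, cannot be told apart from a difference between lines. Against this, 9 D0 and 7 D2 cells had over 10 CPM, of which 6 and 5 lay in plate column 12, and 1 D1 cell had at most 10 CPM. Results are given with and without these cells where that moves them. Marker shares are at full depth. All 6 pluripotency markers checked (Pou5f1, Sox2, Nanog, Zfp42, Dppa5a and Utf1) were read in at least 50% of cells of every label. None of 6 primitive endoderm markers, 6 feeder fibroblast markers or 6 2-cell-like markers reached 50%, and the 2-cell-like sum was at most 0.0628 CPM in any cell. Of 6 trophectoderm markers, Tfap2c did so in D0 (84.4%) and Krt18 in D1 (54%), and the trophectoderm sum reached 807, 744 and 3540 CPM in single D0, D1 and D2 cells. The part of these cells in the results was not tested.

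The means and medians of all 3 members were higher under the labels D1 and D2 than under D0, but their spread over cells differed. Dnmt3a in D0 ranged from 0 to 144 CPM with a median and a lower quartile of 0, and the 9 cells with the most held 80.9% of the summed CPM. In D1 it ranged from 0 to 1118 CPM with a median of 170 CPM, and in D2 from 0 to 900 CPM with a median of 32.2 CPM. The D0 and D1 ranges overlapped up to the highest D0 cell, but the upper quartile of D0 (0.565 CPM) was below the lower quartile of D1 (65.5 CPM).

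Dnmt3b was the member already read in most D0 cells, from 0 to 586 CPM with a median of 97.4 CPM. Its median was 319 CPM in D1 (0 to 1326 CPM) and 148 CPM in D2 (0 to 4115 CPM). Without the cells that went against their plate in Hprt and the Y-linked genes, these medians were 354 and 133 CPM. The D2 spread was the widest of the labels, with quartiles of 0.912 and 531 CPM, and 10 of 93 cells held 56.4% of the summed CPM. At full depth a smaller share of D2 cells (81.7%) than of D0 (85.6%) or D1 cells (98%) had a Dnmt3b read. At equal depth the shares were 73.1% in D2, 83.3% in D0 and 98% in D1. The lower quartile of D2 was below that of D0 (35.1 CPM), while 11 of 93 D2 cells exceeded 1000 CPM against 3 of 50 in D1. Among these D2 cells, wells C12 (1949 CPM), E12 (1362 CPM) and G12 (1505 CPM) went against their plate in Hprt and the Y-linked genes.

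Dnmt3l, the cofactor, changed from a median of 0 in D0 (0 to 200.6 CPM) to 672 CPM in D1, where the lowest cell had 78 CPM. In D2 its median was 374 CPM (0 to 2775 CPM, quartiles 199 and 750 CPM). The highest D2 value was that of well E12, which went against its plate in Hprt and the Y-linked genes. Without the D2 cells that did so, the median of Dnmt3l was 362 CPM. Dnmt3l had the most even spread of the members in D1 and D2, with an SD between cells of 0.608 and 0.913 of the mean, against 1.08 and 1.79 for Dnmt3a.

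**Figure D1:**
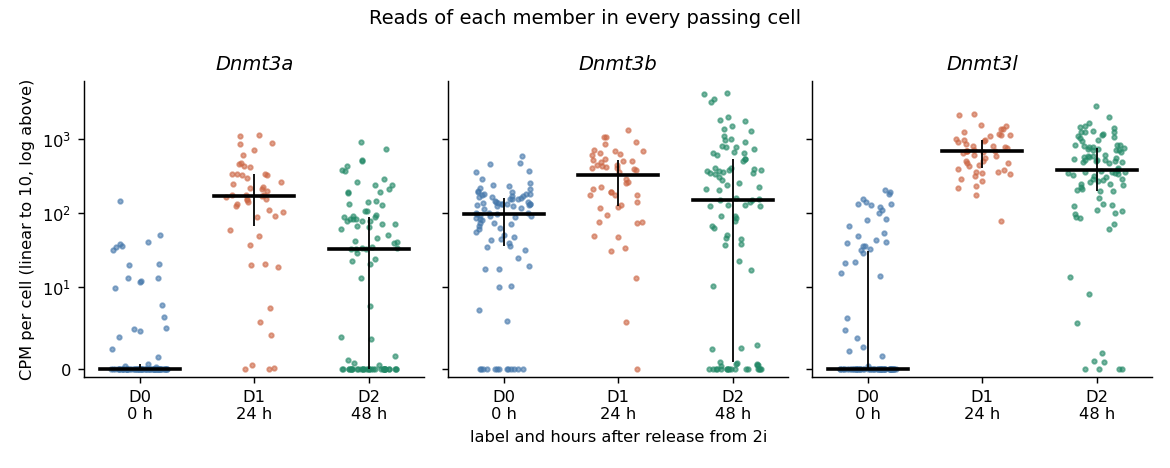
CPM of Dnmt3a, Dnmt3b and Dnmt3l in each of 90 D0, 50 D1 and 93 D2 cells (y axis linear to 10 CPM and logarithmic above), with the median as a thick bar and the quartiles as a thin line. Most D0 cells lie at 0 for Dnmt3a and Dnmt3l but not for Dnmt3b, while every D1 cell lies above 0 for Dnmt3l.

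The mean level in D1 was above that in D0 by 5.47 (Dnmt3a), 1.68 (Dnmt3b) and 4.88 (Dnmt3l) on the log2 scale of mean CPM. From D1 to D2 the difference was -1.54 for Dnmt3a, 0.34 for Dnmt3b and -0.48 for Dnmt3l. The last Dnmt3b difference had no stable direction, since it was -0.31 without the filter on cells and -0.07 with reads summed over cells. In these single-cell libraries as in bulk, fewer transcripts and a larger total from other genes cannot be told apart from CPM alone.

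At equal depth the cells labelled D0 most often held a read of 1 member, those labelled D1 of all 3, and those labelled D2 of 2 or 3. In D0 a read of Dnmt3b was found in 75 of 90 cells, of Dnmt3l in 28 and of Dnmt3a in 18. Dnmt3b alone was the most frequent state (39 cells, 43.3%, exact 95% binomial interval 32.9% to 54.2%), 12 cells held no member, and 7 (7.78%, 3.18% to 15.4%) held all 3. The intervals cover counting error only. Of the D0 cells with a Dnmt3a read, 17 of 18 also had Dnmt3b, as did 58 of 72 without Dnmt3a, and 26 of 28 cells with Dnmt3l had it. Dnmt3a with Dnmt3l but without Dnmt3b was found in 0 of 90 cells (exact interval 0% to 4.02%, and 3 counts would make 3.33%). The product of the single shares, described below, was 0.933 cells for this combination.

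In D1, 44 of 50 cells held all 3 members (88%, 75.7% to 95.5%) and the other 6 held 2 of them. Dnmt3a was the missing member in 5 of these and Dnmt3b in 1, and Dnmt3l was read in every cell. In D2, 41 of 93 cells held all 3 (44.1%, 33.8% to 54.8%), 27 held Dnmt3b and Dnmt3l, 12 held Dnmt3a and Dnmt3l, and 9 held Dnmt3l alone. In D2 Dnmt3l was read in 89 of 93 cells, among them 68 of 68 cells with Dnmt3b and 53 of 54 with Dnmt3a. It was also read in 21 of 25 cells without Dnmt3b and 36 of 39 without Dnmt3a, and 3 cells held no member.

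These shares were set beside the product of the single shares, which is what 3 genes read independently of each other would give. All 3 were read together in 7 D0 cells against a product of 4.67 cells and in 41 D2 cells against 37.8. In D1, where Dnmt3l was read in all 50 cells, Dnmt3b in 49 and Dnmt3a in 45, the count of all 3 could only be 44 or 45, so the product says nothing about independence there. The D0 and D2 products lay inside the interval of the observed share, and over all combinations in D0 and D2 1 product lay outside it, that of D2 cells with no member, 3 against 0.451 (3.23%, 0.670% to 9.14%, product 0.485%). The number of members read in a cell rose weakly with its number of detected genes at equal depth, with a Spearman rho of 0.251 in D0, 0.200 in D1 and 0.386 in D2, and the part of detection in these shares was not tested.

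**Figure D2:**
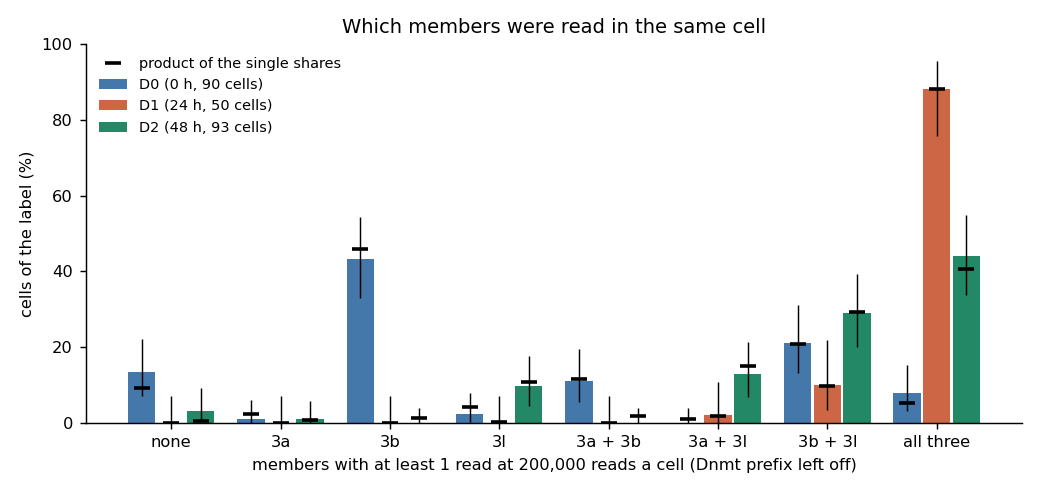
Share of cells of each label (y axis, %) in which each combination of members had at least 1 read at 200000 reads a cell, with exact 95% binomial intervals and the product of the single shares as a black dash. Dnmt3b alone is the tallest bar of D0 (43.3%) and all members together the tallest of D1 (88%) and of D2 (44.1%).

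The share of cells with all 3 members depended little on the cells used. Its values for D0, D1 and D2 were 7.41%, 87.8% and 43% without the cells that went against their plate in Hprt and the Y-linked genes, and 14.4%, 94% and 52.7% at full depth. On plate columns 1 to 6 it was 9.30%, 83.3% and 40.4%, and on columns 7 to 12 6.38%, 92.3% and 47.8%. With at least 5 reads asked of each member at equal depth it fell to 4.44%, 80% and 32.3%.

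Composition was compared within each cell, where the total of the cell cancels. Reads at equal depth were divided by the longest coding transcript (9685 bases for Dnmt3a, 4320 for Dnmt3b and 1822 for Dnmt3l in GENCODE M21) and given as a share of the sum of the 3 members per kb. The leading transcript passed from Dnmt3b to Dnmt3l. In 78 D0 cells with any read, Dnmt3b had a median share of 99.6% (quartiles 56% and 100%) and was the highest member in 59 cells (75.6%). With reads summed over the D0 cells, the share was 61.9% for Dnmt3b and 36.2% for Dnmt3l. In the 50 D1 cells Dnmt3l had a median share of 82.6% (quartiles 70.7% and 90%) and was the highest in 48 cells. In 90 D2 cells the median share of Dnmt3l was 83.7%, close to that of D1, but with wider quartiles of 54.4% and 94.2%, and Dnmt3b was the highest in 16 cells. Dnmt3a had a median of 3.25% in D1 and 0.807% in D2, and its share in D1 never exceeded 21.7%. Without division by length Dnmt3l had a median share of 59.7% in D1 and 64.2% in D2. With the shorter Dnmt3a transcript (5424 bases) the median share of Dnmt3a was 5.67% in D1 and 1.43% in D2, and Dnmt3l stayed at 79.1% and 82.2%.

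Over the cells of a label, rank correlations between the members were highest in D1, and there for Dnmt3a with Dnmt3b, the pair of enzymes, an order that Pearson's r did not keep. Given detected genes, D1 was the highest label for Dnmt3a with Dnmt3b but not for the other pairs. Their Spearman rho at equal depth was 0.615 over 50 D1 cells, against 0.0152 over 90 D0 cells and 0.0973 over 93 D2 cells. As far as the labels show, the points of a label share a culture and a plate, and the difference between labels was not tested. Only 7 of 7438 other genes (0.0941%) read in at least 50% of D1 cells had as high a rho with Dnmt3a, and 19 (0.255%) with Dnmt3b. In D1 each member also rose with the number of detected genes (rho 0.428, 0.479 and 0.459 for Dnmt3a, Dnmt3b and Dnmt3l). Given that number, the partial rho of Dnmt3a with Dnmt3b was 0.516.

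Over the 44 D1 cells that read both genes the rho was 0.568. Without that condition it was 0.543 with another random draw of the reads, 0.607 at full depth, 0.651 and 0.564 on the left and right columns of the plate, and between 0.594 and 0.649 with each cell left out in turn. The Pearson r of log2(CPM + 1) was lower, 0.438, and below the 0.446 of Dnmt3b with Dnmt3l. The cells highest in the 2 genes were only partly shared: of the 13 D1 cells with most Dnmt3a, 5 were among the 13 with most Dnmt3b, where independent ranks would give 3.38.

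In D1 Dnmt3l had lower rank correlations with the enzymes than these had with each other, while in D0 and D2 it had higher ones. With Dnmt3b its rho in D1 was 0.422 (Pearson r 0.446), which fell to a partial rho of 0.259 given detected genes. The partial rho of this pair was higher in D0 (0.298). With Dnmt3a the D1 rho was 0.267 and the partial rho 0.0871 (partial 0.103 in D0 and 0.14 in D2), and 21.4% of genes had as high a rho with Dnmt3a. In D0 Dnmt3b and Dnmt3l had the only rho above 0.3, at 0.316 (partial 0.298), which 0.425% of 7535 genes reached with Dnmt3l and 1.62% with Dnmt3b. It was 0.435 on plate columns 1 to 6 and 0.156 on columns 7 to 12, and 0.193 over the 26 cells that read both. In D2 the 3 pairs lay between 0.0973 and 0.178, levels at which 7.39% to 30.7% of genes stood as high, and no co-variation of the members was found beyond that of many other genes.

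**Figure D3:**
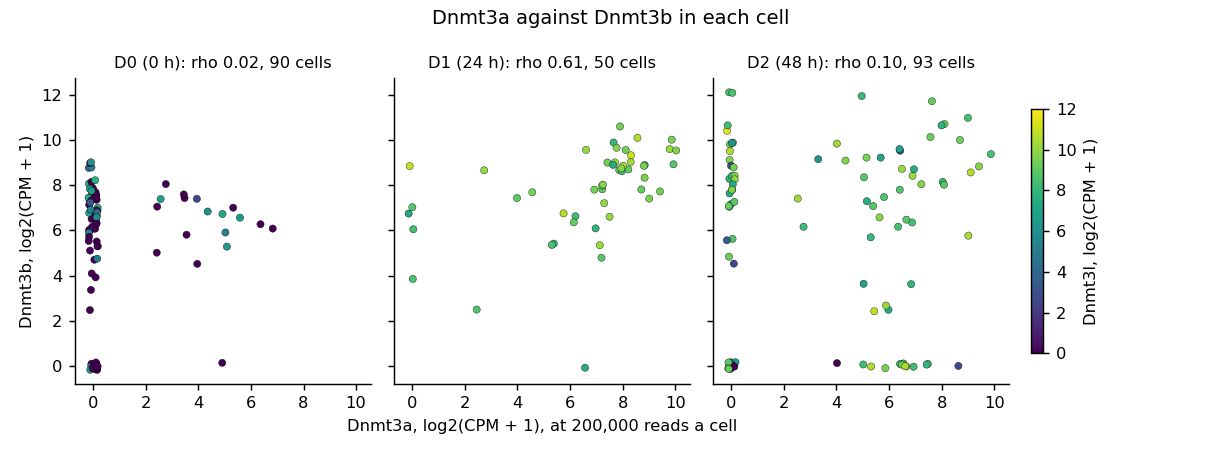
Dnmt3a (x axis) against Dnmt3b (y axis), each as log2(CPM + 1) at 200000 reads a cell, with a small random offset to separate points and colour for Dnmt3l on the same scale. The D1 points rise together (rho 0.615), while D0 and D2 show a column of cells without Dnmt3a at every level of Dnmt3b.

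**Figure D4:**
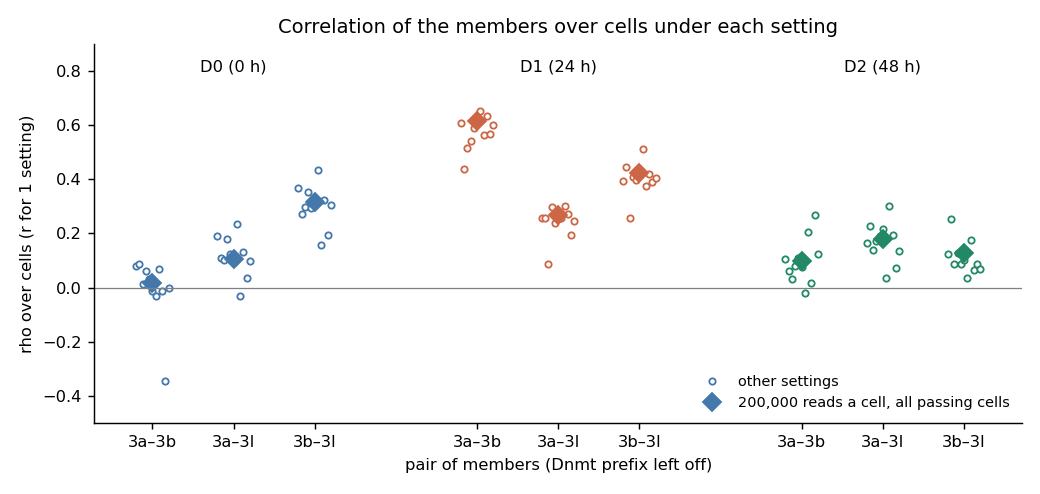
Correlation over cells (y axis) of each pair of members in D0, D1 and D2, as a diamond for all passing cells at 200000 reads and as open circles for the other settings of depth, cell filter, plate columns, zeros and measure. Dnmt3a with Dnmt3b in D1 stays above 0.4 under every setting, while its D0 and D2 values lie on both sides of 0.

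As a yardstick, gene groups known to vary together were measured the same way. The median rho between G2 and mitosis genes in D0, D1 and D2 was 0.575, 0.215 and 0.167, and between S phase genes 0.231, 0.509 and 0.0663. Between naive pluripotency factors it was 0.0705, 0.299 and 0.111. The Dnmt3a and Dnmt3b value in D1 was therefore above the median of the S phase genes, whose range there was 0.108 to 0.801. In D2, where cells had the fewest detected genes at equal depth, all of these groups were also weakly correlated, but the naive factors were lower still in D0. The part of detected genes in this was not tested.

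The genes whose levels followed each member were ranked within a label among genes read in at least 50% of its cells. In D1 the highest rho values of Dnmt3b were with Eno1 (0.740), Ldha (0.717) and Pgam1 (0.706), which encode enolase, lactate dehydrogenase A and phosphoglycerate mutase. They were followed by Ahcy (0.706), whose product clears the S-adenosylhomocysteine left by methyltransferases, and Fkbp4 (0.692), an Hsp90 co-chaperone. The lowest were with the actin-binding Tmsb4x (-0.674), the proteasome subunit gene Sem1 (-0.641) and the ribosomal Rps27l (-0.620). Given detected genes, the 5 highest kept partial values of 0.611 to 0.649. In D0 the same 5 genes had rho values of 0.00247 to 0.182 with Dnmt3b, and in D2 of -0.0192 to 0.292. Because they were picked as the highest in D1, lower values in the other labels follow in part from the choice. Eno1, Ldha, Pgam1, Rps27l and, below, Pgk1, Rpl5, Rpl7a, Set, Cox6c and Ftl2 have near-identical copies in the genome, so their counts are uncertain.

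In D1 Dnmt3a ran with Tomm34 (0.672), a chaperone of mitochondrial import, Limd2 (0.644), Smg5 (0.641), a factor of nonsense-mediated decay, Prpf4 (0.639), a splicing factor, and Tex19.1 (0.630), a germline and pluripotency gene. Its lowest values were with Rps27l (-0.480), Sem1 (-0.471) and Cycs (-0.466), the gene of cytochrome c. Dnmt3l in D1 ran with Arrdc3 (0.583), Eno1 (0.575), Tarbp2 (0.572), a partner of Dicer, Eef2 (0.571), a translation elongation factor, and L3mbtl2 (0.570), part of a Polycomb complex. Its lowest were with Rps27l (-0.587), Rpl5 (-0.573) and Fkbp3 (-0.540). Ranked by the lowest of the 3 rho values, the genes that went with all members at once were Tomm40 (0.521), a mitochondrial import channel gene, Pgk1 (0.520), an enzyme of glycolysis, Ajuba (0.491), Prpsap1 (0.488) and L3mbtl2 (0.477).

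In D2 the highest values were lower than in D1, but a rho also spreads less over the 93 D2 cells than over the 50 D1 cells. Of the 15 genes named for the highest rho in D2, 7 also had a rho of at least 0.3 with the same member in D1, where 16.0%, 25.7% and 15.3% of all genes did with Dnmt3a, Dnmt3b and Dnmt3l. Of the 15 named in D1, 0 reached 0.3 in D2, with a highest rho of 0.292. Genes picked as the highest of one label tend to be lower in another by that choice alone. Dnmt3a ran with Tex10 (0.380), the RNA helicase gene Ddx3x (0.369), Hspa4 (0.354), Eif5b (0.338) and Smarcad1 (0.315), and against Ndufb11 (-0.340), Cox6c (-0.335) and Cd81 (-0.314). Given detected genes, only 4 of these 8 stayed past 0.3 in size. Dnmt3b ran with Emb (0.378), the histone chaperone gene Asf1a (0.375), Set (0.366), Mlx (0.363) and Wdr46 (0.359), of which Mlx (0.286) and Wdr46 (0.294) fell below 0.3 given detected genes. Its lowest values were with Dppa5a (-0.459), a pluripotency gene read in every D2 cell (median 5063 CPM), Mrpl33 (-0.430) and Ftl2 (-0.429). Dnmt3l ran with Tex19.1 (0.416), Ncbp1 (0.391), Eif3d (0.381), Rpl7a (0.376) and Ss18l2 (0.359), and against Dppa5a (-0.374), the tetraspanin gene Cd9 (-0.342) and Spp1 (-0.316).

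Dppa5a, the lowest gene with both Dnmt3b and Dnmt3l in D2, had a rho of -0.488 with Dnmt3b in D1 and -0.459 in D2, and -0.0569 in D0. With Dnmt3l it was -0.374 in D2 but -0.0625 in D1. Tex19.1, named in both D1 and D2, had a rho of 0.630 with Dnmt3a in D1 and of 0.0733 in D2, and of 0.178 with Dnmt3l in D1 and 0.416 in D2. In D0 only Dnmt3b was read in enough cells, and it ran with the topoisomerase gene Top3b (0.476), Yars (0.449), the condensin gene Ncapd2 (0.446), Zfp512b (0.417) and Chmp3 (0.412), and against Uqcrb (-0.371), Srrm1 (-0.349) and Rsrp1 (-0.348). The genes with the highest lowest rho across all members were Gja1 (0.284), Lrba (0.277), Erc1 (0.241), Aldh3a2 (0.209) and Cog5 (0.200) in D0, and Slc3a2 (0.237), Tex10 (0.226), Tmem183a (0.225), Rex2 (0.211) and Twistnb (0.207) in D2, all below 0.3.

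Groups of genes were then read against each member, with a rho of at least 0.3 or at most -0.3 counted and the share of all other entered genes past the same limit as background. In D1 these shares were high for every member: 16.0% of 7437 genes reached 0.3 with Dnmt3a, 25.7% with Dnmt3b and 15.3% with Dnmt3l, and 1.55%, 4.96% and 3.25% reached -0.3. A rho over fewer cells spreads more, and D1 had 50 cells against 90 in D0 and 93 in D2. Shares past a fixed limit are therefore not directly comparable between labels. Given detected genes, 6.35%, 11.5% and 5.85% reached a partial rho of 0.3 with Dnmt3a, Dnmt3b and Dnmt3l. In D0, where only Dnmt3b entered, 2.24% of 7535 genes reached 0.3 and 0.0929% reached -0.3. In D2, 0.279%, 1.36% and 1.12% of 2868 genes reached 0.3 with Dnmt3a, Dnmt3b and Dnmt3l, and 0.105%, 1.05% and 0.174% reached -0.3.

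Genes of DNA replication in S phase had higher rho values with Dnmt3b in D1 than the median gene. Of 12 such genes 11 reached 0.3 with Dnmt3b, with a median of 0.408 against 0.164 over all genes, and given detected genes 10 still did, with a median of 0.357. Pcna, the replication clamp gene, had a rho of 0.501 with Dnmt3b, Rrm2, a subunit of ribonucleotide reductase, 0.504 and the helicase gene Mcm6 0.494, while Rrm1 was the lowest at 0.295. With Dnmt3a 6 of 12 reached 0.3 (median 0.303, Gins2 highest at 0.508) and with Dnmt3l 1 of 12 (Mcm5, 0.378). Given detected genes, the Dnmt3a count fell to 2 (Gins2 and Ung) and its median to 0.209. In D0 none of the 12 reached 0.3 with Dnmt3b (median 0.122 against 0.0654 over all genes), nor did any in D2 with any member (medians -0.00534, 0.0703 and 0.101). Of 13 G2 and mitosis genes, 3, 5 and 1 reached 0.3 with Dnmt3a, Dnmt3b and Dnmt3l in D1, with signs that differed between genes: the cyclin gene Ccnb1 had a rho of 0.552 with Dnmt3b and Ccnb2 of -0.480. Given detected genes 2, 2 and 0 of them reached 0.3.

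**Figure D5:**
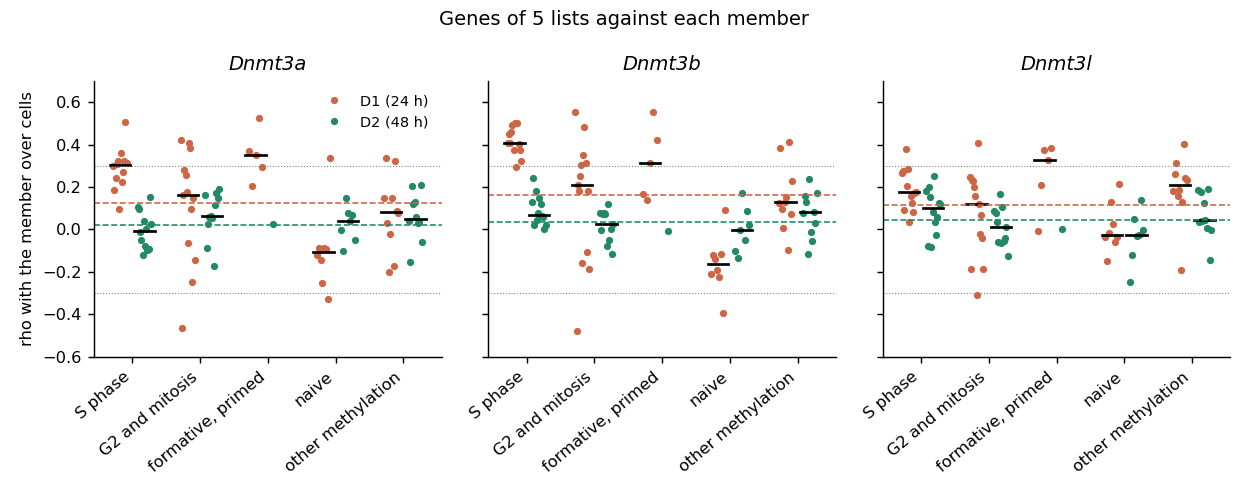
Spearman rho over cells (y axis) of each gene of 5 lists with Dnmt3a, Dnmt3b and Dnmt3l in D1 and D2 (points), with list medians as black bars, the median over all entered genes as dashed lines in the colour of the label and 0.3 and -0.3 as dotted lines. S phase genes with Dnmt3b in D1 lie at 0.295 to 0.504, and all but 1 lie above the upper dotted line.

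Pluripotency genes fell on different sides. Among 8 naive factors read in enough D1 cells the median rho was -0.106, -0.165 and -0.0266 with Dnmt3a, Dnmt3b and Dnmt3l, against medians of 0.125, 0.164 and 0.116 over all genes. Given detected genes the list medians were -0.0873, -0.158 and 0.0255, so that with Dnmt3l the sign turned. By rho only Zfp42 passed -0.3, with Dnmt3b (-0.395, partial -0.364) and Dnmt3a (-0.327, partial -0.287). Given detected genes Klf5 passed it too, with Dnmt3a (-0.374) and Dnmt3b (-0.320). The share of all genes with a partial rho past -0.3 was not counted, so these calls have no background. Esrrb had a rho of -0.226 with Dnmt3b, Nanog of -0.21, Klf4 of -0.14 and Tfcp2l1 of -0.115. Only Nr0b1 was above 0 with Dnmt3a (0.338) and Dnmt3b (0.0912). With Dnmt3l, Nr0b1 (0.213), Klf5 (0.128) and Esrrb (0.0257) were above 0. Of 14 formative and primed factors 5 entered in D1, of which 3 reached 0.3 with each member, among them Lin28a (0.527 with Dnmt3a, 0.553 with Dnmt3b) and Etv5, an ERK target (0.353, 0.315 and 0.373). Given detected genes these calls fell to 2, 1 and 0 of 5, and Etv5 was below 0.3 with every member (0.256, 0.199 and 0.272). Of 9 ERK target genes that entered in D1, 2, 3 and 3 reached 0.3 with Dnmt3a, Dnmt3b and Dnmt3l, and given detected genes none did with any member. The primed markers Pou3f1, Fgf5 and Otx2 were read in 46%, 6% and 18% of D1 cells at equal depth and did not enter. In D2 none of 7 naive factors passed either limit with any member. Of 6 core pluripotency factors, 2 reached 0.3 with Dnmt3a in D1, 0 with Dnmt3b and 2 with Dnmt3l (2, 0 and 1 given detected genes). Utf1, a chromatin-bound factor of pluripotent cells, had a rho of -0.0961, 0.337 and 0.253 with Dnmt3a, Dnmt3b and Dnmt3l in D0, of 0.476, 0.253 and 0.325 in D1, where the last was 0.263 given detected genes, and of 0.19, 0.0865 and 0.322 in D2.

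Other genes of DNA methylation had median rho values in D1 slightly below those of all genes with Dnmt3a and Dnmt3b, and above with Dnmt3l. With each member 2 of 10 entered genes reached 0.3 in D1. The median was 0.0825 with Dnmt3a, 0.128 with Dnmt3b and 0.208 with Dnmt3l, against 0.1255, 0.164 and 0.116 over all genes. The genes that reached 0.3 were Uhrf1, the partner of the maintenance enzyme, with Dnmt3a (0.338) and Dnmt3b (0.386), Tet1, a demethylating dioxygenase, with Dnmt3l (0.314), and Trim28, a corepressor, with all members (0.325, 0.413 and 0.403). Given detected genes Uhrf1 fell to 0.268 with Dnmt3a, and the other calls held. That left 1, 2 and 2 of 10 with Dnmt3a, Dnmt3b and Dnmt3l, where 6.35%, 11.5% and 5.85% of all genes reached a partial rho of 0.3. Dnmt1, the maintenance methyltransferase itself, had 0.15, 0.125 and 0.183. None reached either limit in D0 or D2. Prdm14, a repressor of the de novo genes in naive cells, and Dppa3 were read in 57.8% and 78.9% of D0 cells, and had a rho of 0.0335 and 0.0746 with Dnmt3a, -0.111 and -0.0713 with Dnmt3b and -0.250 and -0.242 with Dnmt3l there. Dnmt3a and Dnmt3l were read in fewer than 50% of D0 cells.

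The other methylation genes did not share the higher levels of the members in D1. A change of at least 2-fold in mean CPM + 10 was counted among genes that 50% or more of the cells of one or the other label had read at full depth. From D0 to D1 all 3 members were higher, at 4.06 (Dnmt3a), 1.60 (Dnmt3b) and 4.42 (Dnmt3l) on the log2 scale, where 7.35% of 10491 other genes were higher and 16.7% lower by that measure. Of 13 other methylation genes none was higher and 6 were lower: Dnmt1 by -1.15, Uhrf1 by -1.43, Tet2 by -1.96, Dppa3 by -1.15, Prdm14 by -2.07 and Usp7 by -1.15. From D0 to D2 the members differed by 2.63, 1.93 and 3.94, with a background of 6.83% higher and 20.5% lower. Of 12 other methylation genes Tdg was higher (1.29) and Uhrf1 (-1.70) and Prdm14 (-1.52) were lower. From D1 to D2 (9.62% of 9852 genes higher, 9.51% lower) Dnmt3a was lower by -1.44, while Dnmt3b (0.33) and Dnmt3l (-0.48) did not pass 2-fold, and 3 of 11 other methylation genes were higher, Tet2 (2.52), Tdg (1.15) and Tet1 (1.03), and 1 lower, Hells (-1.17). The comparisons share their cells in pairs and are given side by side.

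Rows of similar sequence or name held few reads beside the members. Dnmt3c, a rodent duplicate of Dnmt3b active in the male germline, had 366 reads in 30 of 50 D1 cells, 15 in 2 D0 cells and 11 in 5 D2 cells, against 264525, 18602 and 95956 reads of Dnmt3b. How the counting assigned reads shared by both is not given in the sources used here. The antisense Dnmt3bos had 7, 230 and 24 reads in D0, D1 and D2, and Dnmt3aos, Dnmt3a-ps1 and Dnmt3l-ps1 had at most 4.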

How the data were processed

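The authors aligned the reads with HISAT2 to GRCm38 per the labels and deposited a table of counts, whole numbers of reads for each gene and each of 288 wells (96 per label), with 0 columns of no sample. The counting tool and annotation are not given in the sources used here. The labels name a normalized table, but the values are raw counts. The mitochondrial limit, which the methods give as a percentage, was read as a fraction, and the study kept fewer cells than these limits leave here. Passing cells had 202157 to 43336922 reads. Flow-sorted single cells were used without a doublet caller, and no molecular identifiers are present. From the counts, CPM used the total of the cell. For equal depth, each cell was thinned without replacement to 200000 reads with a fixed seed. Spearman rho was computed over the cells of a label, as a description without p, and partial rho given the detected genes. Shares have exact Clopper-Pearson 95% intervals, and a count of 0 is given with the share that 3 counts would make. Calls were a rho of 0.3 or -0.3 and a change of 2-fold in mean CPM + 10. No deposited p-values or comparisons were used.

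Named genes were the members, the 5 genes with the highest and 3 with the lowest rho with each member read in at least 50% of cells, the 5 with the highest minimum of the 3 rho values, and fixed list members (Dnmt1, Uhrf1, Tet1, Tet2, Dppa3, Prdm14, Nanog, Zfp42, Klf4, Esrrb, Tfcp2l1, Otx2, Pou3f1, Fgf5, Utf1 and Hprt). Genes without an established symbol kept their rank but were not named. Other list genes were named after their values were seen. The members and lists were chosen with earlier results of these data known. Python 3.11.15, numpy 2.4.6, pandas 2.3.3, scipy 1.17.1 and edgeR 4.0.16 (TMM factors on summed reads only, in R 4.3.3) were used, and the ranking and fold steps were tested on simulated counts. Promoter windows came from a RefSeq table of GRCm38.p6, and lengths from GENCODE M21, which may not be the annotation of the authors.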

Additional observations from a re-analysis of the deposited data

Results flagged for a closer look

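Wells that failed the filter were not used in the comparisons, and reads of the members were looked for in them. Of 46 failing D1 wells, with a median of 1436.5 reads, 22 had a read of Dnmt3l, 16 of Dnmt3b and 10 of Dnmt3a, with 248, 88 and 30 reads in all. Of 6 failing D0 wells 1 had Dnmt3b (8 reads), and of 3 failing D2 wells 1 had Dnmt3l (1388 reads). The order among the members was that of the passing D1 cells, where Dnmt3l was read in 50, Dnmt3b in 49 and Dnmt3a in 45 of 50 at equal depth. Each label held 96 wells but no repeat culture that the labels name, and single wells were not set against the others of their label.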

How the results depend on the processing

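No paired analysis was possible because the labels name no repeat cultures, the number of a well links no cells of different labels, and the labels were compared without a test. The alternatives that left out plate column 12, kept only cells reading both members or cells of at least 3000 genes, used the shorter Dnmt3a transcript, or counted list genes given detected genes were chosen after seeing the data.

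The share of cells with all members kept within its interval under 26 of 27 alternatives, and in D2 was 32.3% with at least 5 reads. Of 117 alternative pair correlations 96 stayed within 0.1 with the same sign, and none of those at 0.3 or more changed sign. On plate columns 1 to 6 the rho in D0 was -0.0300 for Dnmt3a with Dnmt3b, 0.236 for Dnmt3a with Dnmt3l and 0.435 for Dnmt3b with Dnmt3l, and in D2 -0.0197 and 0.0348 for the first pairs. On columns 7 to 12 it was -0.0314 (Dnmt3a with Dnmt3l) and 0.156 (Dnmt3b with Dnmt3l) in D0, and 0.203 (Dnmt3a with Dnmt3b) and 0.302 (Dnmt3a with Dnmt3l) in D2. Over cells reading both it was -0.347 (Dnmt3a with Dnmt3b, 17 cells) and 0.193 (Dnmt3b with Dnmt3l) in D0, and 0.267 (Dnmt3a with Dnmt3b) and 0.0708 (Dnmt3a with Dnmt3l) in D2. In D0 Dnmt3a with Dnmt3b was -0.0142 without the cells that went against their plate in Hprt and the Y-linked genes, -0.0134 without column 12, -0.00328 in cells of at least 3000 genes, and -0.0106 to 0.0510 with each cell left out. Pearson's r was 0.438 (Dnmt3a with Dnmt3b, D1) and 0.251 (Dnmt3b with Dnmt3l, D2). Given detected genes, D1 values were 0.0871 (Dnmt3a with Dnmt3l) and 0.259 (Dnmt3b with Dnmt3l), and 4 of 8 genes named with Dnmt3a in D2 stayed past 0.3. The causes were not tested.

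With reads summed over cells, the share per kb in D0 was 61.9% for Dnmt3b and 36.2% for Dnmt3l. Without division by length Dnmt3l was at 59.7% in D1, and in D2 Dnmt3l was at 64.2% and Dnmt3b at 23.9%. Mean log2 ratios without a cell filter were 6.25 (Dnmt3a) and 2.36 (Dnmt3b) for D1 against D0, and -2.27 and -0.31 for D2 against D1. With 10 CPM added Dnmt3a was 4.06 in D1 and 2.63 in D2, each against D0. TMM on summed reads gave 2.42 for Dnmt3b for D1 against D0 and -0.0018 for D2 against D1, and summed reads alone -0.0697 in the latter. In D0 18 of 90 cells had a Dnmt3a read at equal depth, with a median of 3.5 reads, so correlations with it there rest on few reads.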

Other observations

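The Dppa family was not described as a group above. Of its 4 genes 3 entered in D1, of which 2, 1 and 0 reached 0.3 with Dnmt3a, Dnmt3b and Dnmt3l, against 16.0%, 25.7% and 15.3% of other genes. Given detected genes, 1, 0 and 0 did. In D1, Dppa2, a chromatin-bound factor of pluripotent cells, had a rho of 0.518 with Dnmt3a and 0.398 with Dnmt3b, and Dppa5a of -0.372 and -0.488 with the same members (-0.239 and -0.364 given detected genes). In D2 Dppa2 had 0.318 with Dnmt3b and 0.293 with Dnmt3l, where Dppa5a had -0.459 and -0.374. At full depth both genes were read in nearly every cell (Dppa2 in 100% of D1 and 98.9% of D2 cells, Dppa5a in 100% of both). Both had higher means in D1 and D2 than in D0, from 65.5 to 319 and 280 CPM for Dppa2 and from 2680 to 4483 and 6841 CPM for Dppa5a. Dppa4 had 0.307 with Dnmt3a in D1 and 0.316 with Dnmt3b in D0. These genes were picked after their values were seen.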
